A study of Penicillium oxalicum with 10 samples.

Results

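PDE_01345 is the gene annotated as nitric oxide dioxygenase in Penicillium oxalicum, a filamentous soil fungus that secretes enzymes which break down plant cell walls. It is 1 gene of the 9859 in the deposited table and the only 1 whose annotation names this enzyme. It was chosen by its locus number after its values in these libraries were known, so its levels are a description and carry no test. The name comes from a KEGG orthology match in the authors' table, where the product column reads hypothetical protein and the gene ontology terms are haem binding, iron ion binding and oxidoreductase activity. The listed length is 1263 bases.

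Nitric oxide dioxygenases of fungi are flavohaemoglobins. A globin domain holds haem and oxygen, a reductase domain passes electrons to it through FAD, and nitric oxide is turned into nitrate. Nitric oxide binds haem and iron-sulphur proteins and slows respiration at cytochrome c oxidase, and the enzyme is known for relieving that block. In Aspergillus nidulans, a related mould, the flavohaemoglobin gene fhbA responds to nitrate and to nitric oxide.

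Messenger RNA of mycelia was counted in 10 libraries, 1 from the wild-type strain M12 and 1 each from 9 deletion strains, which by their labels lack swi6, stuA, abaA, wetA or 1 of the 5 genes flbA to flbE. In Aspergillus, FlbA to FlbE act before the conidiation activator BrlA, AbaA and WetA act after it, and StuA shapes the spore-bearing stalk. All strains were grown from conidia for 20 h at 30 °C in modified Czapek medium with 2% glucose, and the mycelia then spent 48 h in new medium. The labels do not say how many transformants or cultures stand behind a library. No genotype has a replicate, so each error given is a 95% interval for counting reads, and the spread between cultures is unknown.

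The libraries held 3.10 (flbA deletion) to 7.60 (labelled flbD deletion) megareads placed at 1 site. The labels were checked against the genes that the annotation allows. A gene of the APSES family of StuA (PDE_04095) had 1 read in the stuA deletion library, against 377 RPKM in wild type. Chromobox protein 1 (PDE_08896) had 1 read in the swi6 deletion library, against 43.9 RPKM in wild type. PDE_03008, annotated as FlbD, stood at 327 RPKM under the label flbD deletion and at 341 RPKM in wild type, and a TEA-family gene, the family of AbaA (PDE_02932), had 59.1 RPKM in the library labelled abaA deletion against 28.5 RPKM in wild type. Those 2 libraries are therefore called by their labels throughout, and the other 5 deletions could not be read by gene name.

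In wild type the nitric oxide dioxygenase gene was a weakly expressed gene, and in every deletion library at least 94.6% of all genes lay below it. RPKM below is reads per kilobase of listed length and per megaread of the library. The gene had 100 reads in wild type, which is 15.4 RPKM (12.5 to 18.7), and 35.6% of all genes lay below it there. In the flbE deletion library it had 79601 reads and 8676 RPKM (8616 to 8736), the 13th highest value of the library and 1.096% (1.088 to 1.103) of its reads. It had 54841 reads and 6301 RPKM in the flbB deletion library, where it ranked 20th. The other 7 deletion libraries lay between these levels and wild type, and none overlapped wild type.

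The library labelled flbD deletion had 34019 reads of the gene and 3545 RPKM. The flbA deletion library had 8849 reads and 2258 RPKM, and the swi6 deletion library had 12673 reads and 1789 RPKM. The flbC deletion library had 7022 reads and 1251 RPKM. These 4 libraries form the middle of the order. Lower again were the stuA deletion library with 5204 reads and 579.7 RPKM, the wetA deletion library with 4164 reads and 499 RPKM, and the library labelled abaA deletion with 2669 reads and 300.3 RPKM. Even the lowest of them ranked 528th of 9859 genes, against 6345th in wild type.

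**Figure D1:**
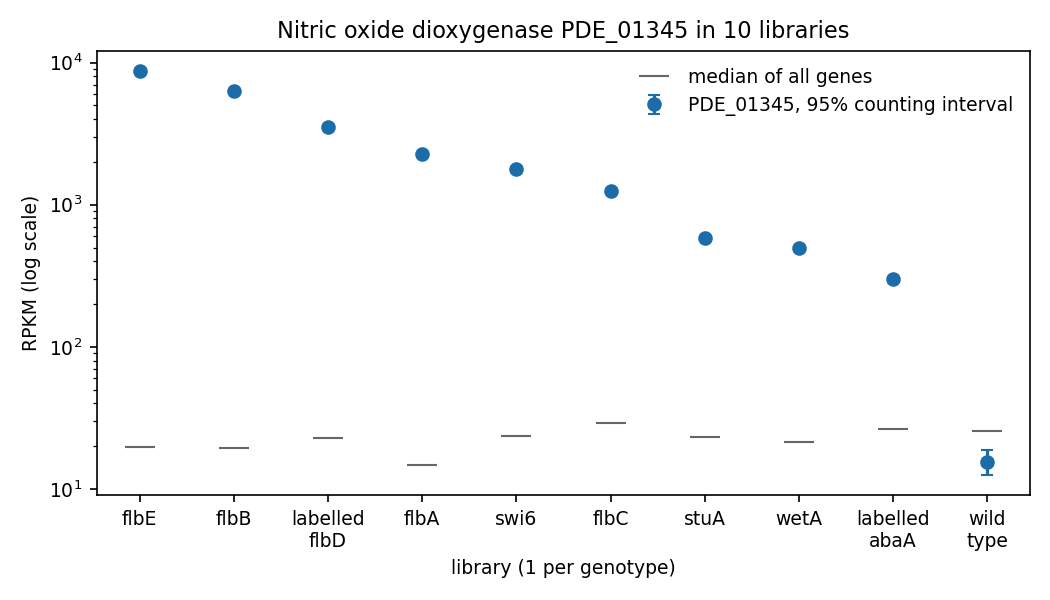
RPKM of PDE_01345 on a log axis in the 10 libraries, ordered by its level, with 95% counting intervals as bars, and the median RPKM of all 9859 genes as dashes. Wild type is the only library in which the gene (15.4 RPKM) lies below the median gene (25.7 RPKM), and the deletion libraries run from 8676 down to 300.3 RPKM.

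Relative to wild type, the ratio of RPKM was 564 (464 to 694) for flbE, 409.9 (337 to 504) for flbB, 231 (189.6 to 284) for the library labelled flbD and 147 (121 to 181) for flbA. It was 116 (95.6 to 143) for swi6, 81.4 (66.8 to 100.2) for flbC, 37.7 (30.9 to 46.4) for stuA, 32.4 (26.6 to 40.0) for wetA and 19.5 (16.0 to 24.1) for the library labelled abaA. The width of these intervals comes almost wholly from the 100 wild-type reads, which enter all 9 ratios. With median-of-ratios scaling, which sets libraries level by their typical gene in place of the read total, the flbA ratio was 243, and none of the other 8 moved by over 1.5 times. Of the 9134 genes with a mean of at least 1 RPKM over the libraries, those at least 2-fold above wild type on the log2(RPKM + 1) scale made up 9.8% for flbA, 10.9% for flbE, 11% for swi6, 11.7% for the labelled flbD and 12% for flbB. They made up 13.3% for stuA, 13.8% for wetA, 14.6% for flbC and 15.2% for the labelled abaA library, and 1.28% of genes were above in all 9. The gene was picked on this contrast, so nothing is read from its place among them.

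The order of the libraries held up against counting error, although not against a replicate. Each library differed from the next lower by more than the counting interval of their ratio. With the read total as the scale, the closest were the stuA and wetA deletion libraries, 1.16-fold apart (1.12 to 1.21), and the flbA and swi6 deletion libraries, 1.26-fold apart (1.23 to 1.30). The flbE and flbB deletion libraries differed 1.38-fold (1.36 to 1.39), and the labelled flbD library was 1.57-fold above the flbA deletion library (1.53 to 1.61). With this scale the widest step among deletion libraries lay between flbC and stuA, 2.16-fold (2.08 to 2.24), and the whole span from flbE to the labelled abaA library was 28.9-fold (27.8 to 30.0). With median-of-ratios scaling the order was the same and the span was 38.4-fold, but the steps changed. The flbD-labelled library then lay 1.08-fold (1.05 to 1.103) above flbA, flbA lay 1.82-fold (1.77 to 1.87) above swi6 and flbC 1.76-fold (1.701 to 1.83) above stuA, and the widest step was that from flbB to the labelled flbD library, 2.08-fold (2.05 to 2.11). Steps of this size between single cultures may lie within their unknown spread.

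The reads lay along the whole gene. In all 9 deletion libraries 1262 of the 1263 listed bases were covered, which is 99.92% in the authors' coverage column. In wild type the 100 reads covered 91.21%, or 1152 bases. The 102 other genes of like length (within 10%) with 80 to 120 wild-type reads had a median coverage of 95.3%, a lower quartile of 93.8% and a range of 74.8 to 99.8%, so the gene lay below that lower quartile. Its level also varied more among the deletion libraries than that of most genes. Its standard deviation over the 9 deletions was 1.67 on the log2(RPKM + 1) scale, and 94.6% of genes tested had a lower one, with a median of 0.57.

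The genes with the locus numbers PDE_01340 to PDE_01350 give the local background. Locus numbers were taken as the order of the genes, and distances, strands and overlaps are not given in the table, so reads of overlapping genes cannot be told apart here. Of the 10 neighbours, 1 has a product name, the aquaporin-related PDE_01343, and 9 passed the filter on low values. PDE_01348, whose gene ontology term is protein dimerization activity, was the only strongly expressed neighbour that was far above wild type in every deletion library. The 2 genes next in number did not share the high level of PDE_01345, as PDE_01344 had at most 31.1 RPKM in any library and PDE_01346 was level with or below wild type.

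PDE_01348 had 282 reads in wild type, which is 59.1 RPKM. It reached 8013 RPKM in flbE, 4997 in flbB, 2923 in the labelled flbD and 2591 in the wetA library. The labelled abaA library had 1617 RPKM of it, stuA 1188, swi6 846, flbC 777 and flbA 555. All 9 deletion libraries lay above wild type, by ratios from 9.39 (8.27 to 10.7) in flbA to 136 (121 to 153) in flbE. The top 3 libraries were those of PDE_01345 in the same order, and the rest of the order differed.

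The ratio between both genes separated the libraries. PDE_01345 had the higher RPKM in the flbA (4.07-fold that of PDE_01348), swi6 (2.11-fold), flbC (1.61-fold), flbB (1.26-fold), labelled flbD (1.21-fold) and flbE (1.08-fold) deletion libraries. It had the lower RPKM in wild type (0.260 of PDE_01348) and in the labelled abaA (0.186), wetA (0.192) and stuA (0.488) deletion libraries. Across the 10 libraries Pearson's r of their log2(RPKM + 1) was 0.82 and Spearman's rho 0.60, and over the 9 deletion libraries alone r was 0.50 and rho 0.45. Each library contributes 1 point, the depth of a library is shared by both genes, and the value over 10 rests on the wild-type point.

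**Figure D2:**
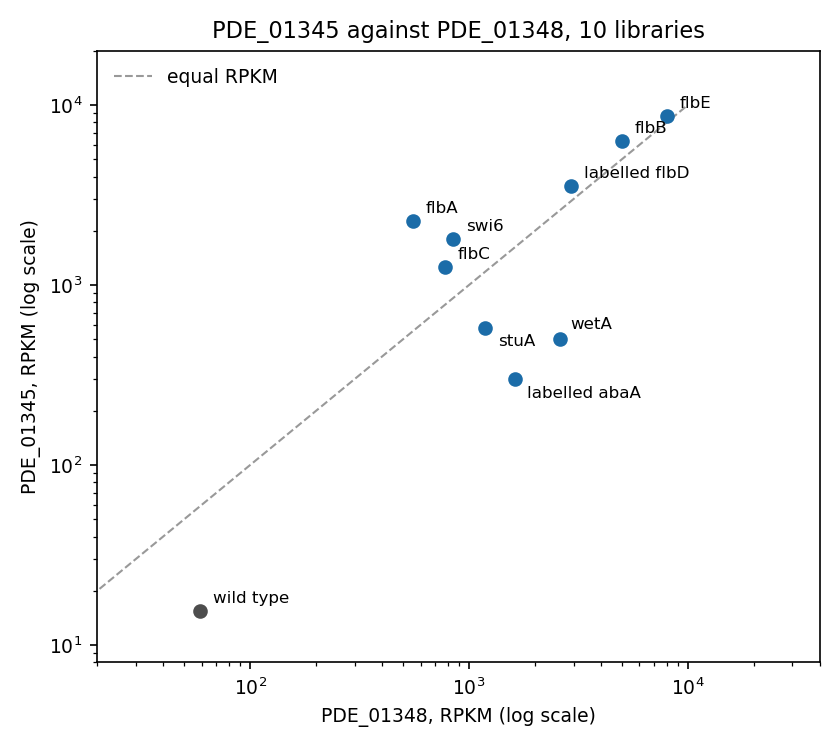
RPKM of PDE_01345 against that of its neighbour PDE_01348 on log axes, 1 point per library, with the line of equal RPKM. The wild type lies apart at 15.4 and 59.1 RPKM, the wetA, stuA and labelled abaA libraries lie below the line, and the other 6 deletion libraries lie above it.

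Of the other neighbours, PDE_01344 had 0 reads in wild type and 8 to 65 reads in the deletion libraries, with the most in flbB (31.1 RPKM) and flbE (23.2 RPKM). With 3 reads set in place of the 0 wild-type reads, it was 16.2-fold higher in flbB and 2.17-fold higher in stuA, where it had 9 reads. These ratios leave out the counting error of the deletion reads, so they are not lower limits. The r of PDE_01344 with PDE_01345 was 0.86 over the 10 libraries and 0.58 over the 9 deletions, on these low counts. Both values lie above those of PDE_01348 (0.82 and 0.50). PDE_01347 had 1 read in wild type, 5 reads in the flbA and 60 reads in the stuA deletion library, a ratio to wild type of 43.5 (7.51 to 1746) in stuA. PDE_01343 had 0 wild-type reads and 2 to 29 reads elsewhere, and PDE_01340 had 3 reads in all libraries together. The filter was met by PDE_01343, PDE_01344 and PDE_01347 only through the deletion libraries, so they had to lie above wild type and their calls support nothing.

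PDE_01346, the gene next to PDE_01345 by number, stood at 251.7 RPKM in wild type and at 272.5 RPKM for flbA. For stuA it stood at 30.4 RPKM, which is 0.121 (0.0973 to 0.149) of wild type. It was 118 RPKM in flbE, where PDE_01345 was highest. PDE_01341 was at 644 RPKM in wild type, at 68.2 RPKM for flbA and at 290.3 to 1257 RPKM elsewhere. PDE_01350, with an amino acid transporter term, was at 89.4 RPKM in wild type, at 12.1 RPKM in flbA and at 55.2 to 139 RPKM in the other deletion libraries, and PDE_01349 had 12.9 RPKM in wild type, 1 read in flbA and at least 2-fold more than wild type in flbB (28.7 RPKM), flbE (30.2 RPKM), wetA (33.2 RPKM) and stuA (43.6 RPKM). PDE_01342 stayed between 10.7 and 20.9 RPKM in all 10 libraries.

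Over the 9 tested neighbours and 9 deletions, 39 of 81 differences were at least 2-fold higher than wild type (48.1%) and 6 were at least 2-fold lower (7.41%). Over all tested genes the shares were 12.5% higher and 18.1% lower, and with median-of-ratios scaling 15.8% higher and 12.8% lower. Of the 39, 27 belonged to PDE_01344, PDE_01347 and PDE_01348, and most of the rest to PDE_01343, so the count mostly reflects genes with 0 or 1 wild-type reads. No test was made, since the 9 differences of a gene share 1 wild-type library.

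**Figure D3:**
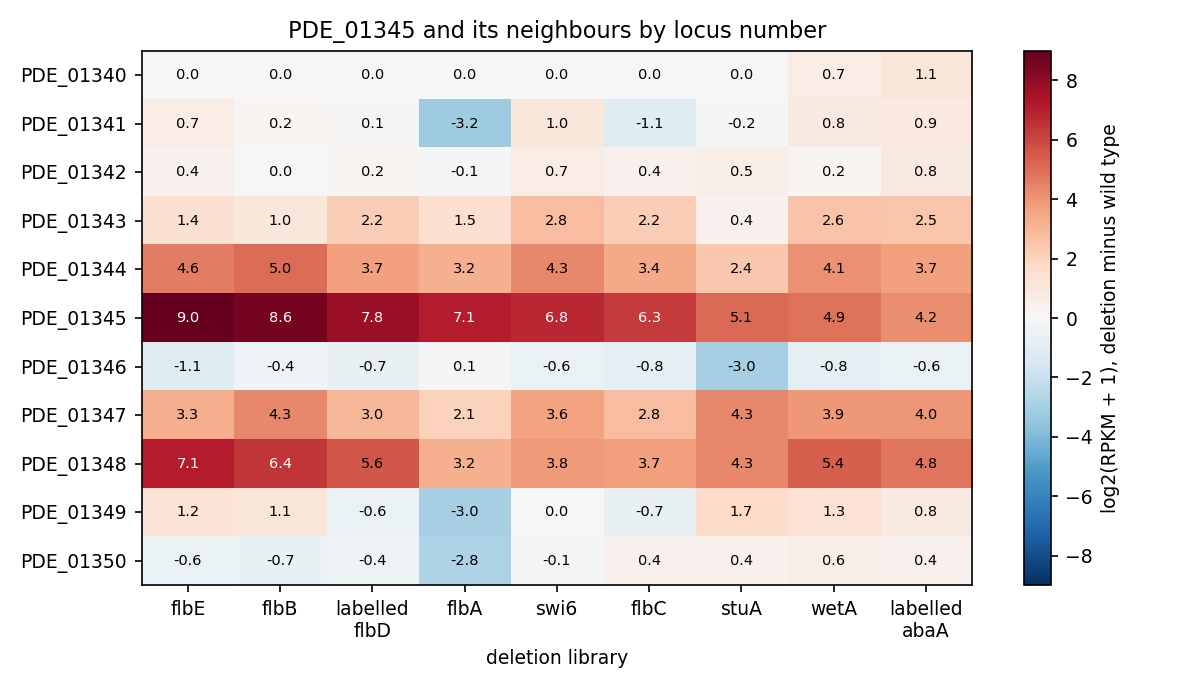
Differences of log2(RPKM + 1), deletion minus wild type, for PDE_01340 to PDE_01350 (rows in locus order) and the 9 deletion libraries (columns in the order of PDE_01345). PDE_01345 (4.20 to 9.05) and PDE_01348 (3.21 to 7.06) reach the highest values, while PDE_01346 between them lies between -3.01 and 0.11. PDE_01344 (2.37 to 5.01) and PDE_01347 (2.10 to 4.33) are also above wild type in all 9 columns, but had only 0 and 1 wild-type reads.

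Genes with a pattern like that of PDE_01345 were ranked by Pearson's r of log2(RPKM + 1) over the 10 libraries, among 8246 other genes that reach 10 RPKM in at least 1 library. The median r was -0.23, and 6 genes (0.0728%) reached 0.9. Of these 6, 5 carry a product name, and all 6 were lowest in wild type. Over the 9 deletion libraries alone 2 genes (0.0243%) reached 0.9, and both are among the 6. These values are descriptions over libraries that share the processing and differ in depth.

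The gene most alike was PDE_02628, annotated as a protein-serine/threonine kinase, an enzyme class that passes on signals by phosphorylation (r = 0.97, rho = 0.96, and r = 0.91 over the deletions). It moved over a narrow range, from 41.3 RPKM (wild type) and 59.1 RPKM (labelled abaA) to 80.04 RPKM in flbB and 85.2 RPKM in flbE. A glyceraldehyde 3-phosphate dehydrogenase of glycolysis (PDE_09952) was alike with and without wild type (r = 0.93 and 0.92). It had 867 RPKM in wild type, 1076 RPKM in wetA and 3248 RPKM in flbE. Both were highest in the flbE deletion library, as PDE_01345 was, but the kinase was at least 2-fold above wild type in 1 deletion (3 with median-of-ratios scaling) and the dehydrogenase in 6.

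Coproporphyrinogen III oxidase (PDE_02372), which catalyses a late step of haem synthesis, came next over 10 libraries (r = 0.94, and 0.81 over the deletions). It had 14.4 RPKM in wild type, a level near that of PDE_01345, 321 RPKM in flbB, 191 RPKM in flbE, 162 RPKM in flbC and 146 RPKM in flbA. It had 132 RPKM in swi6, 118 RPKM in the labelled flbD, 92.1 RPKM in the labelled abaA, 86.0 RPKM in wetA and 71.1 RPKM in stuA. All 9 deletion libraries were above wild type, and the lowest 3 were those in which PDE_01345 was lowest. Acetate kinase (PDE_05139), which links acetyl phosphate and acetate, was at 17.6 RPKM in wild type and at 46.0 to 138 RPKM in the deletions (r = 0.93, and 0.78 over the deletions).

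An NADH dehydrogenase (PDE_06939), which feeds electrons into respiration, was at 45.6 RPKM in wild type and at 75.5 to 172 RPKM in the deletions (r = 0.91, and 0.83 over the deletions). The unnamed PDE_09789 had 13.8 RPKM in wild type and 28.5 to 73.1 RPKM elsewhere (r = 0.92, and 0.78 over the deletions). The next genes were the unnamed PDE_08054 (r = 0.89), citrate synthase of the citric acid cycle (PDE_09135, r = 0.89), the translation factor elongation factor 3 (PDE_03486, r = 0.89) and the unnamed PDE_09790 (r = 0.89). PDE_09135 was at 116 RPKM in wild type and at 336 to 1867 RPKM in the deletions. Without wild type r was 0.66 for PDE_08054, 0.74 for PDE_09135 and 0.66 for PDE_03486.

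Over the 9 deletions the 5 highest were PDE_09952, PDE_02628, PDE_09790 (r = 0.89), a cytochrome P450 (PDE_00811, r = 0.89) and the unnamed PDE_00743 (r = 0.87). PDE_00811 had at most 2.71 RPKM in a deletion library against 74.0 RPKM in wild type, so its r over 10 libraries was -0.55. Its r over the deletions rests on 0 to 29 reads per library. With the libraries farthest from the median of PDE_01345 left out, wild type and flbE, r was 0.89 for PDE_02628, 0.89 for PDE_09952, 0.81 for PDE_02372, 0.78 for PDE_06939, 0.70 for PDE_05139 and 0.69 for PDE_09789. The number of genes at 0.9 or more was 24 without the flbA deletion library and 20 without the swi6 deletion library, so the count of 6 depends on single libraries.

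**Figure D4:**
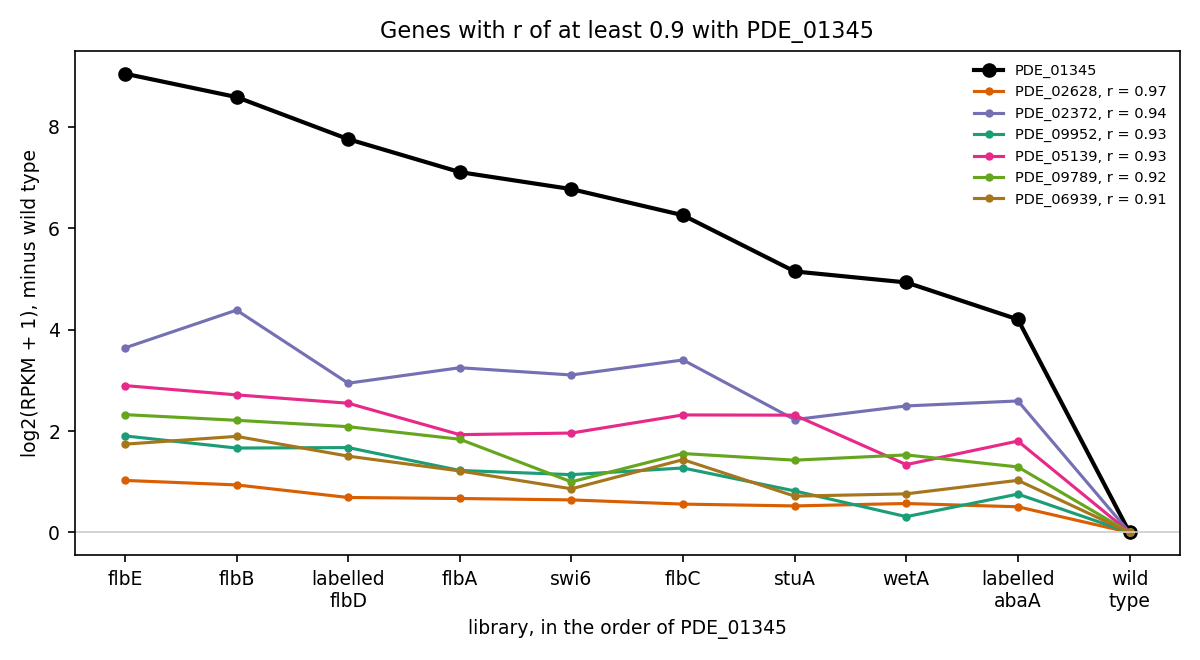
Log2(RPKM + 1) minus its wild-type value for PDE_01345 (black) and the 6 genes with r of at least 0.9 over 10 libraries, in the order of PDE_01345. PDE_01345 spans 9.05 log2 units, and coproporphyrinogen III oxidase (PDE_02372) shows the widest span of the 6.

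Genes of nitric oxide handling, of nitrogen uptake and of the cofactors of the enzyme were taken as lists from the annotation text. Besides PDE_01345 the nitric oxide list holds S-(hydroxymethyl)glutathione dehydrogenase (PDE_03064), which in other organisms also reduces S-nitrosoglutathione, and a nitric oxide synthase-interacting protein (PDE_04429). PDE_03064 had 138 RPKM in wild type, 713 RPKM in swi6, 284 RPKM in flbA and 92.2 to 232 RPKM in the other deletions. PDE_04429 was at 20.7 RPKM in wild type and at 9.09 to 32.9 RPKM in the deletions. Of their 18 differences, 2 were at least 2-fold higher (11.1%, against 12.5% over all tested genes) and 1 was lower (5.56%, against 18.1%). The share of higher differences was thus near that of all genes. With median-of-ratios scaling 0 were lower, against 12.8% over all tested genes.

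Haem is the cofactor of the globin domain. The pattern for its synthesis found 10 genes, and it also took PDE_02155, a sirohydrochlorin ferrochelatase, which belongs to sirohaem synthesis. Of 90 differences of the 10 haem synthesis genes 16 were at least 2-fold higher (17.8%, against 12.5% over all tested genes) and 2 lower (2.22%, against 18.1%), and 9 of the 16 belonged to coproporphyrinogen III oxidase. With median-of-ratios scaling 25 were higher and 0 lower, and the shares over all tested genes also moved, to 15.8% higher and 12.8% lower. Porphobilinogen synthase (PDE_06849), an early enzyme of the pathway, was at 79.5 RPKM in wild type, 476 RPKM in flbE, 338 RPKM in flbB and 306 RPKM in the labelled flbD library, but 95.5 RPKM in swi6 and 96.9 RPKM in flbA. It was at least 2-fold higher in 5 deletions. The entry enzyme 5-aminolevulinate synthase (PDE_09296) was at 44.6 RPKM in wild type and at 50.8 to 93.7 RPKM in the deletions, at least 2-fold higher in 2 (6 with median-of-ratios scaling). A hydroxymethylbilane synthase (PDE_07517, 48.3 RPKM in wild type against 23.1 to 37.8) and uroporphyrinogen-III synthase (PDE_08197, 12.2 RPKM against 5.50 to 13.5) were at least 2-fold lower in 1 deletion each, and in none with median-of-ratios scaling. Another hydroxymethylbilane synthase gene (PDE_04232) was at 36.8 RPKM in wild type and at 28.5 to 49.6 RPKM in the deletions.

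Of the 4 genes for riboflavin and FAD, the other cofactor, riboflavin kinase (PDE_03609) was at least 2-fold higher in 7 deletions (9 with median-of-ratios scaling), with 31.9 RPKM in wild type and 59.97 to 105 RPKM elsewhere. FAD synthetase (PDE_07994) and lumazine synthase (PDE_02491) were each at least 2-fold lower in 2 deletions, and riboflavin synthase (PDE_02608) in none. With median-of-ratios scaling none of these was lower, and FAD synthetase was at least 2-fold higher in 1. Over the list 7 of 36 differences were higher (19.4%, against 12.5%) and 4 lower (11.1%, against 18.1%). The median over these 4 genes of the mean difference was -0.46, against -0.23 over all tested genes. Among 5 iron uptake genes 11 of 45 differences were higher (24.4%, against 12.5% over all tested genes) and 5 lower (11.1%, against 18.1%). A metal iron transporter (PDE_08408) was at least 2-fold higher in 5 deletions and a high-affinity iron transporter (PDE_07611) at least 2-fold lower in 5 and higher in stuA (49.6 RPKM against 13.5 RPKM). Ferric-chelate reductase (PDE_08755) had 457 RPKM in flbA against 4.71 RPKM in wild type, the siderophore symporter PDE_04184 had 53.7 RPKM in stuA against 4.53 RPKM, and the mitochondrial iron carrier PDE_08235 had 15.5 to 31.9 RPKM throughout.

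**Figure D5:**
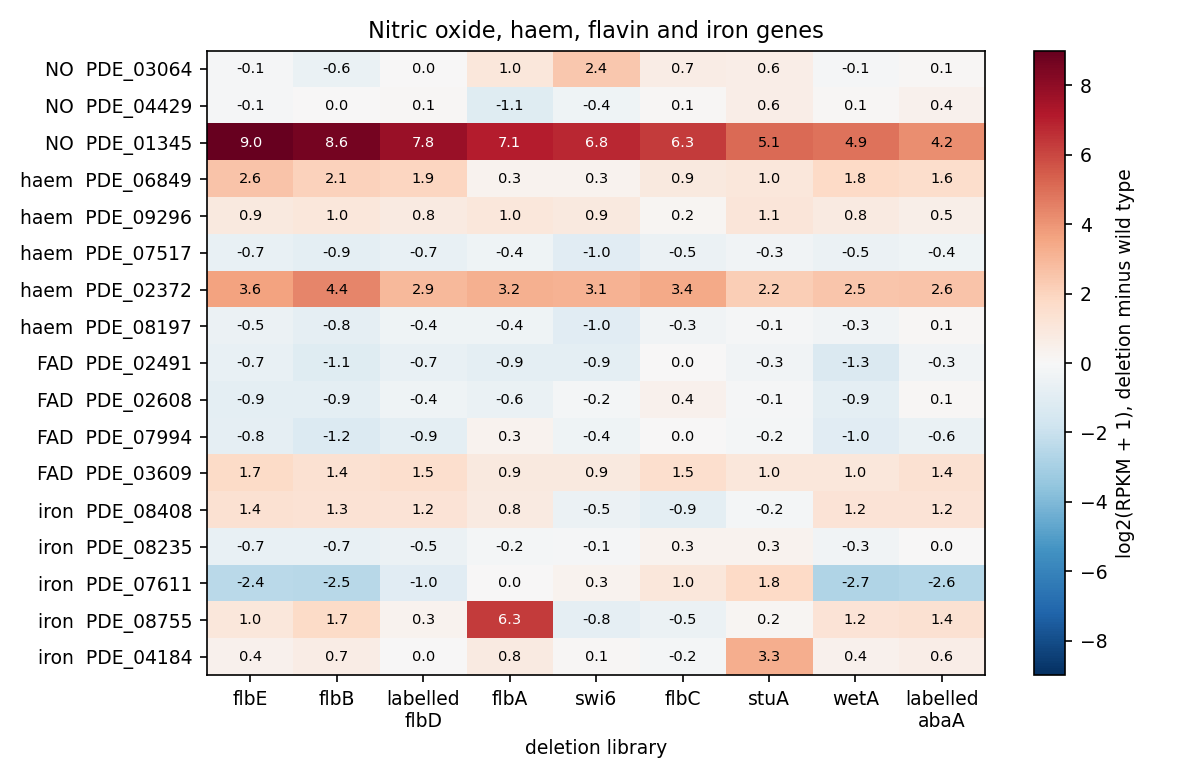
Differences of log2(RPKM + 1), deletion minus wild type, for the named genes of the nitric oxide (NO), haem, flavin (FAD) and iron lists in the 9 deletion libraries, ordered as PDE_01345. PDE_02372 and PDE_01345 are at least 2-fold higher in all 9 columns (with median-of-ratios scaling, which is not drawn, PDE_03609 is too), and PDE_08755 reaches 457 RPKM in flbA against 4.71 in wild type.

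Nitrate and ammonium assimilation makes and uses the ions next to nitric oxide in nitrogen metabolism. Its pattern found 20 genes, of which 19 were tested, and it also took folylpolyglutamate synthases such as PDE_04377 (22.6 RPKM in wild type, 10.4 to 28.1 RPKM elsewhere), which belong to folate metabolism. Of 171 differences 47 were at least 2-fold higher (27.5%, against 12.5% over all tested genes) and 19 lower (11.1%, against 18.1%). In the flbA deletion library 10 of the 19 genes were at least 2-fold higher, against 9.8% of all genes there, and with median-of-ratios scaling these were 10 genes against 20.4%. Nitrite reductase (PDE_00370) had 418 RPKM in flbA, 0.297 RPKM in wild type, 10.3 RPKM in flbE and 0.231 RPKM in wetA, while PDE_01345 was higher in flbE, flbB and the labelled flbD library than in flbA. A nitrate reductase (PDE_00369) had 183 RPKM in flbA, 0 reads in wild type and at most 0.172 RPKM in the other deletions. PDE_00369 met the filter only through flbA, so it had to be higher there and its call among the 10 supports nothing. A nitrate/nitrite transporter (PDE_00371) had 181 RPKM in flbA, 3.76 RPKM in wild type and 2.19 to 11.7 RPKM in the other deletions. A glutamine synthetase (PDE_08346), which fixes ammonium, was at least 2-fold higher in all 9 deletions, with 263 RPKM in wild type and 531 to 983 RPKM elsewhere. Another gene of that name (PDE_04219) was at 59.7 RPKM in wild type, at 27.1 RPKM in flbA and at 111.8 to 263.5 RPKM in the other deletions. Of the urease accessory proteins, PDE_03580 was at least 2-fold higher in 6 deletions and PDE_08724 lower in 8 (5 with median-of-ratios scaling).

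Of 31 tested genes of oxidative stress defence none was at least 2-fold higher in all 9 deletions. Over all tested genes that share was 1.28%, so a list of this size may well hold none. Their differences were higher in 53 of 279 cases (19.0%, against 12.5% over all tested genes) and lower in 20 (7.17%, against 18.1%). Of these genes 13 were higher in flbA, against 9.8% of all genes there, and with median-of-ratios scaling 19 were, against 20.4%. Glutathione S-transferases took part in both directions. PDE_01194 had 659 RPKM in flbC, 457 RPKM in stuA and 3.69 RPKM in wild type, PDE_05029 was at least 2-fold higher in 8 deletions, and PDE_02434 and PDE_09253 were lower in 6 each. A superoxide dismutase (PDE_00326) had 3541 RPKM in flbA, 64.1 RPKM in flbE, 49.3 RPKM in flbB and 31.9 RPKM in the labelled flbD library against 5.80 RPKM in wild type, and 3.08 to 9.55 RPKM in the other 5 deletions. The list for alternative respiration matched no product or orthology name.

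The median of all tested genes shifted by -0.64 to 0.12 on the log2(RPKM + 1) scale between the deletion libraries and wild type, which is small beside the 4.20 to 9.05 of PDE_01345 and not small beside the list values. In the flbA deletion library the unnamed gene PDE_06605 took 27.9% of reads against 7.73% in wild type. Because the 9 differences share a single wild-type library, a condition peculiar to that culture and a change common to the 9 strains cannot be told apart.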

How the data were processed

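The deposited table lists, for each of the 10 libraries, counts of uniquely placed reads per gene, RPKM and the percent of the gene length covered, per the file headers. CASAVA 1.8 was used, per the submitters' processing notes. Names of aligner, genome build and annotation were not given in the sources used here. Counts summed to the deposited totals, and RPKM recomputed from them differed from the deposited RPKM by a relative gap of at most 2.57e-08. A dash was read as 0.

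The gene, the lists and the naming rule were set with earlier results of these data known. Differences are log2(RPKM + 1), deletion minus wild type, over the 9134 genes that average 1 RPKM or more, and a pseudocount of 1 makes differences of weak genes smaller. With 1 library per genotype no test was run. Count intervals are exact Poisson, ratio intervals exact conditional (Clopper-Pearson) and shares Wilson score, all at 95%. Reads carry no molecular identifiers, so intervals and the floor of 3 reads cover counting error only. Named were PDE_01345, its neighbours, all members of lists of up to 6 tested genes (otherwise the 3 highest and 2 lowest by mean difference), the 10 genes most alike over 10 libraries, the 5 most alike with a name and the 5 most alike over deletions. The list genes PDE_00369, PDE_00371, PDE_02155, PDE_04219 and PDE_04232 were named outside this rule, with their values known. The reference table, of strain HP7-1, holds 0 entries under these locus numbers and was not used. Scripts ran in Python 3.11.15 with scipy 1.17.1 and were tested on simulated data. Alternatives were scaling, pseudocount, filter and libraries left out.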

Additional observations from a re-analysis of the deposited data

How the results depend on the processing

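PDE_01345 was above wild type in all 9 deletion libraries under every scaling and pseudocount tried, and the order of the libraries did not change. Its log2 differences moved beyond counting error with median-of-ratios scaling to 7.82 in flbA, 8.98 in flbB and 9.43 in flbE, and to 7.47 in flbA when PDE_06605 was left out of the totals. With a pseudocount of 5 they became 6.80 in flbA, 8.27 in flbB, 5.95 in flbC, 7.45 in the labelled flbD, 8.74 in flbE, 4.63 in wetA, 3.91 in the labelled abaA, 4.84 in stuA and 6.46 in swi6, by construction of the scale. The count of genes at least 2-fold above wild type in flbA was 895, and 1867 with median-of-ratios scaling.

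The 6 genes with r of at least 0.9 became 2 over the deletions alone, 18 with median-of-ratios scaling, 24 without flbA, 20 without swi6, 11 without wetA, and 10 without flbC, without the labelled abaA, without stuA, or without both the labelled flbD and abaA libraries. The cause was not tested. The variants leaving out a library other than flbA or wild type, and those on list and neighbour counts, were chosen after seeing the data. With median-of-ratios scaling haem differences were 25 higher and 0 lower, riboflavin and FAD ones 0 lower, and nitrate and ammonium ones 11 lower. Over all tested genes that scaling gave 15.8% higher and 12.8% lower, against 12.5% and 18.1% with the read total. Haem differences lower were 5 without PDE_06605 in the totals and 0 with a pseudocount of 5. Lower differences of the nitric oxide list went from 1 to 0 with median-of-ratios scaling, without PDE_06605 in the totals and with a pseudocount of 5. Of 161 alternative values 129 stayed close to the reported value, meaning within 1.5 times for a count and within counting error for a log2 difference. No paired analysis was possible because each genotype has 1 library. Low counts limit PDE_01340, PDE_01343, PDE_01344 and PDE_01347, and in the deletion libraries PDE_00811.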

Other observations

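At least as far above wild type in all 9 deletion libraries as PDE_01345, by the smallest of the 9 differences (4.20 on the log2(RPKM + 1) scale), were 2 other genes, found after the values were seen. PDE_08849 has no product name, and its gene ontology term is alternative oxidase activity. Alternative oxidases pass electrons from ubiquinol to oxygen without cytochrome c oxidase, and they are known to be less sensitive to nitric oxide than that enzyme. It is the only gene of the table with this term, and the list for alternative respiration missed it because that list searched product and orthology names only. It had 52 reads and 9.43 RPKM in wild type.

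PDE_08849 had 14677 RPKM in flbE, 12861 RPKM in flbB and 10225 RPKM in the labelled flbD library, the same top 3 as PDE_01345. It had 5869 RPKM in stuA, 3796 RPKM in the labelled abaA, 3774 RPKM in wetA, 1805 RPKM in flbC, 1290.0 RPKM in swi6 and 559 RPKM in flbA. Its ratio to wild type ran from 59.3 (45.0 to 79.7) in flbA to 1557 (1187 to 2085) in flbE. The flbA and swi6 deletion libraries, where PDE_01345 had 2258 and 1789 RPKM, were its 2 lowest deletions, and r with PDE_01345 over the 9 deletions was 0.36. The unnamed PDE_02095 had 34.5 RPKM in wild type and 665 to 17023 RPKM in the deletions, with r of 0.17.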
